A study of Mus musculus with 32 samples.

Results

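Intestinal stem cells of mice labelled Ppara-null (the PparA group) were set against those of mice labelled Ppard-fl/fl (the PparD group), all of strain C57BL6 and all on the control diet. The comparison used 8 of the 32 libraries of the series, 4 for each genotype, taken by the genotype and diet written in the names of the count columns, and every gene that passed a filter on low counts was tested. RNA came from GFP-high cells of dissociated crypts, stained for the epithelial surface protein CD326 and for viability and sorted straight into TRI reagent. Polyadenylated RNA was read by 3' digital gene expression, which counts fragments near the 3' end of each transcript. The other control-diet groups, used here only as levels, were WT (labelled Wildtype) and PparDA, which carries both alleles. The high-fat PparA and PparD groups, 4 libraries each, served as a second pair of genotypes in other libraries. Neither mutant group is wildtype at both loci, so a difference between them can lie in either one. No source used here states a Cre, the recombination of the floxed Ppard alleles, the reporter behind the GFP, the age of the mice or the length of the diet. Nothing says that the libraries within a group are separate animals, so p-values measure only the spread between these samples.

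The count columns carry library numbers in 4 runs of 8, each run holding every group once. PparD control libraries are numbers 3, 11, 19 and 27 and PparA control libraries 5, 13, 21 and 29, in runs 1 to 4. Place 3 of a run was always PparD and place 5 always PparA, so place and genotype cannot be told apart. Totals ran from 622663 to 712604 counts over the 8 libraries, with 11730 to 12040 genes detected, and 5872 genes passed the filter on low counts. Levels are counts per 1000000 counts in tested genes (CPM) given in run order, group values are mean ± SD (n = 4), and a log2 fold change is PparA minus PparD with its standard error (SE). A gene is called at a Benjamini-Hochberg adjusted p under 0.05 in edgeR's two-sided quasi-likelihood test with the run as a block. The sex-linked Xist stood at 632.6 to 722.6 CPM in runs 1 and 3 and at no more than 1.486 CPM in runs 2 and 4 in these 8 libraries, so the runs fall into pairs that differ in sex-linked genes.

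PPARα and PPARδ are nuclear receptors that bind fatty acids and their derivatives, pair with RXR and sit on direct repeats of a short hexamer near their target genes. Both are known to drive genes of fatty acid transport and of mitochondrial and peroxisomal oxidation. In the crypt, fatty acid oxidation is known to bear on the function of Lgr5-positive stem cells. The comparison asks which of these genes stand at different levels when one receptor gene or the other is the altered one.

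The receptor transcripts themselves were at the edge of detection and failed the filter, so no test was made. Ppara (chr15:85734983-85802819) had 2, 3, 3 and 4 counts in the PparD libraries and 0, 1, 1 and 0 in the PparA libraries, or 2.98 to 5.733 against 0 to 1.606 CPM. The ranges did not overlap, and WT libraries had 3, 1, 0 and 2 counts. PparDA libraries, which carry the null allele too, had 4, 1, 1 and 4 Ppara counts, so counts of this size do not separate null from non-null libraries. Ppard (chr17:28232700-28301474) had 1, 2, 1 and 7 counts in PparD and 5, 5, 1 and 6 in PparA, which overlap. Reads at the 3' end need not lie in the removed exons, so neither gene checks its label at this depth.

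Of 5872 tested genes 58 were called (0.988%), 30 higher in PparA (0.511%) and 28 lower (0.477%), and 506 had an unadjusted p under 0.05. The median log2 fold change over all tested genes was -0.0001. Among the called genes were the carnitine carrier Slc25a20, lower in PparA, 11 genes of chromosome 15, where Ppara lies, 6 ribosomal protein genes and 15 annotated pseudogenes. The 4 PparA and 4 PparD values did not overlap for 195 tested genes (3.32%) and for 36 of the 58 called. Of the genes called lower in PparA 23 of 28 had such ranges, and of those called higher 13 of 30. The number called was 38 without library 3, 35 without library 11, 36 without library 13 and 38 without library 27.

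**Figure D1:**
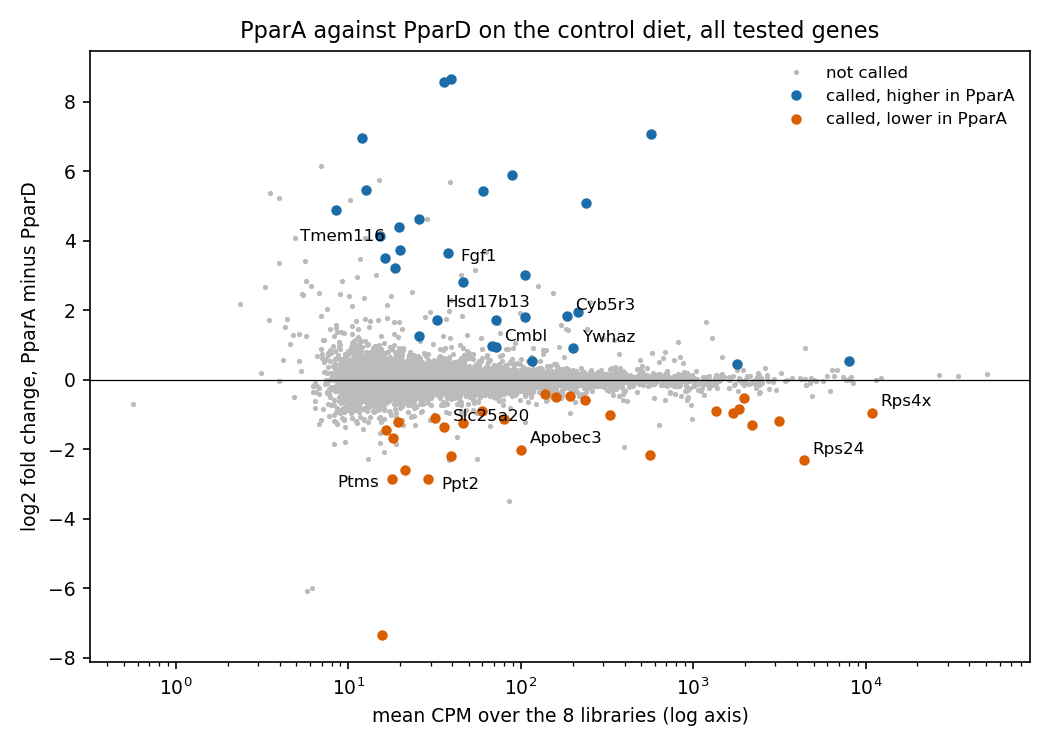
Each point is a tested gene, with its mean CPM over the 8 control-diet libraries on a log axis and its log2 fold change, PparA minus PparD, on the vertical axis. Genes called at an adjusted p under 0.05 are coloured, 30 higher in PparA and 28 lower. Many of the largest log2 changes belong to genes of low mean CPM, though Gm6278 changed by 7.06 at a mean of 568 CPM. Rps24 and Rps4x are called among the most abundant.

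Slc25a20 (chr9:108662088-108684641) encodes the carrier that brings acylcarnitines into mitochondria for oxidation. It stood at 56.62, 53.49, 51.48 and 45.86 CPM in PparD (51.86 ± 4.525) and at 32.65, 20.63, 19.27 and 8.79 CPM in PparA (20.33 ± 9.765), with no overlap and PparA lower in every run. The 2.55-fold difference corresponds to a log2 fold change of -1.36 (SE 0.300, adjusted p = 0.0167). The same difference appeared on the high-fat diet, in other libraries, at -1.13 (adjusted p = 0.013). WT stood at 25.8 ± 10.4 CPM, near the PparA level, and PparDA at 36.5 ± 10.29 CPM. Against WT, in contrasts that share these libraries, neither mutant was called (adjusted p = 0.155 for PparD and 0.758 for PparA). The call was lost without any one of libraries 3, 11, 13, 21 and 29, at adjusted p from 0.0553 to 0.0844. It was also lost with only the 8 libraries fitted, at adjusted p = 0.114 with the run as a block and 0.109 without. With runs 1 and 3 alone the change was -1.04 (adjusted p = 0.58), and with runs 2 and 4 alone it was called at -1.77 (adjusted p = 0.00858).

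**Figure D2:**
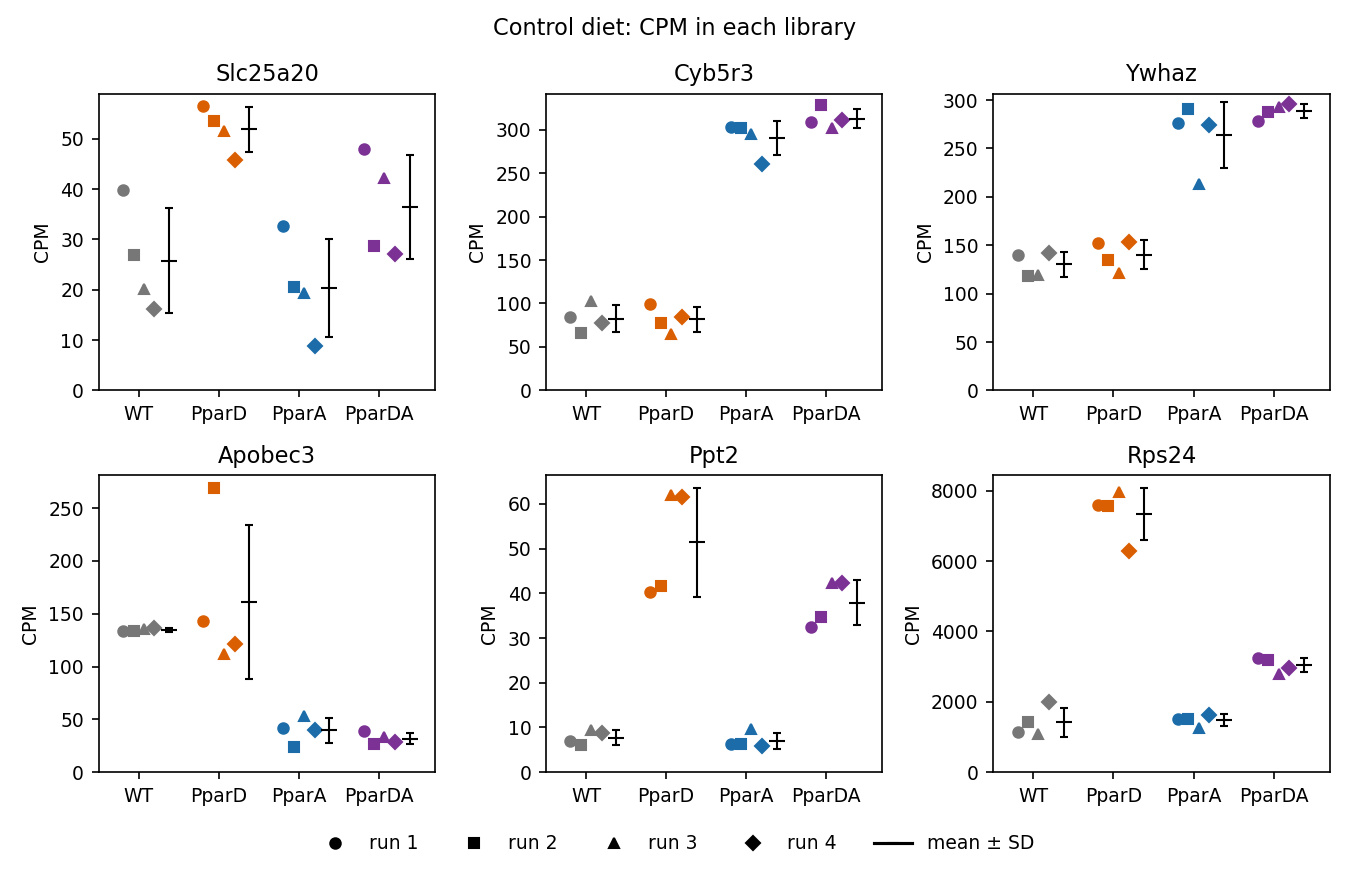
CPM of 6 called genes in each control-diet library of 4 genotypes (vertical axes from 0, marker shape by run, bars mean ± SD of 4 libraries). For Slc25a20 every PparA library lies below every PparD library, Cyb5r3, Ywhaz and Apobec3 separate PparA and PparDA from WT and PparD, and Ppt2 and Rps24 are highest in PparD.

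The remaining fatty acid oxidation genes did not pass the test. Of 20 tested genes of the mitochondrial list 17 had negative and 3 positive fold changes, with 1 called, Slc25a20, and a median of -0.29. Summed over the list, levels were 3707, 3590, 3799 and 3428 CPM in PparD and 3647, 3118, 2950 and 2892 CPM in PparA, so only PparA library 5 reached the PparD range. The sum averaged 2881 CPM in WT (2638 to 3159), 3152 in PparA, 3530 in PparDA and 3631 in PparD. The PparA mean was thus not below that of WT. Hadha, a subunit of the trifunctional protein of long-chain oxidation, had 113.2, 173.8, 155.9 and 131.9 CPM in PparD and 174.1, 107.9, 80.28 and 89.36 CPM in PparA (log2 fold change -0.35, SE 0.169, adjusted p = 0.566). Here library 5 was the highest of the 8, and without it the change was -0.65 (adjusted p = 0.0151). Without any other single library Hadha was not called, at -0.22 (without library 21, adjusted p = 0.805) to -0.47, and with runs 1 and 3 alone it was -0.08 (adjusted p = 0.985), while with runs 2 and 4 alone it was called at -0.63 (adjusted p = 0.0478). Library 5 carried PparA levels of genes described below, with 303.1 CPM of Cyb5r3 and 41.97 CPM of Apobec3. PparDA averaged 312.5 and 31.87 CPM of these genes, so they do not tell PparA from PparDA libraries. Acaa2, the thiolase of the last step of the cycle, had 411.2, 393.7, 408.8 and 374.1 CPM in PparD and 387.1, 295.2, 245.7 and 241.7 CPM in PparA, a change of -0.44 (adjusted p = 0.273) that became -0.65 without library 5 (adjusted p = 0.0192) and stayed uncalled without any other single library (-0.34 to -0.47). Without library 5, a library noticed after its values were seen, 5 members of the list were called, all lower in PparA, and the median was -0.38. Without any other single library 0 or 1 members were called, and the median lay between -0.17 and -0.33. Cpt1a, the rate-limiting step of fatty acid entry into mitochondria, was not called either: it had 37.25, 44.57, 15.14 and 32.96 CPM in PparD and 43.53, 20.63, 17.66 and 16.11 CPM in PparA (-0.44, SE 0.359, adjusted p = 0.827). Its change was -0.15 without library 11, -0.28 without 21, -0.73 without 19 and -0.79 without 5, and it was 0.23 with runs 1 and 3 alone and -1.08 with runs 2 and 4 alone, none of them called. Acadvl, the very-long-chain acyl-CoA dehydrogenase, gave -0.58 (SE 0.156, adjusted p = 0.0683) on the control diet and -0.67 (adjusted p = 0.00993) on the high-fat diet.

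Other PPAR targets were few among the tested genes. The list outside fatty acid oxidation has 27 members, of which 9 were tested, 6 with negative and 3 with positive changes and a median of -0.15. Angptl4, an inhibitor of lipoprotein lipase, had 8.94, 17.83, 10.6 and 10.03 CPM in PparD and 13.99, 1.587, 3.211 and 1.465 CPM in PparA. Again PparA library 5 lay among the PparD values and the other 3 below them, and the change was -1.21 (SE 0.632, adjusted p = 0.621), or -2.44 without library 5 (adjusted p = 0.163). On the high-fat diet Angptl4 was called lower in PparA at -2.01 (adjusted p = 0.0271). Plin2, a lipid droplet coat protein, changed by -0.20 (SE 0.147, adjusted p = 0.800). Pdk4, which restrains pyruvate oxidation, was not tested, at 1.433 to 1.514 CPM in PparD and 0 to 1.587 CPM in PparA. The peroxisomal list had 8 negative and 2 positive changes among 10, none called, and a median of -0.21. Its members of smallest p were Decr2, a peroxisomal reductase for unsaturated fatty acids (-0.72, adjusted p = 0.247), and the lipid carrier Scp2 (0.31, adjusted p = 0.511).

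Fabp1, the liver-type fatty acid binding protein and a PPAR target of enterocytes, spread widely among the PparA libraries. It had 155.0, 179.8, 301.3 and 147.6 CPM in PparD and 259.6, 1203, 32.11 and 511.3 CPM in PparA. PparA libraries 13 and 29 were the highest of the 8 and library 21 the lowest, and the change was 1.14 (SE 0.61, adjusted p = 0.625). With runs 2 and 4 alone it was 2.36 (adjusted p = 0.0201), with runs 1 and 3 alone -0.66 (adjusted p = 0.927), and without library 13 it was 0.39 (adjusted p = 0.992). The genes encoding apolipoproteins of chylomicrons followed the same libraries: Apoc3 had 10.43, 7.429, 13.63 and 5.733 CPM in PparD and 18.65, 244.4, 6.423 and 64.46 CPM in PparA. Apoc3 was called at 2.82 (SE 0.704, adjusted p = 0.0451), a call lost without library 3, 11, 13, 19, 27 or 29 (adjusted p = 0.0522 to 0.603). The list of lipid uptake, triglyceride and chylomicron genes had 15 positive and 3 negative changes among 18, 1 called (Apoc3) and a median of 0.92, which was 0.40 without library 13. Cholesterol synthesis (11 negative of 14, median -0.26) and fatty acid synthesis (8 negative of 8, median -0.22) had no called member. The members of smallest p were the sterol desaturase Sc5d (-0.58, adjusted p = 0.457) and the stearoyl-CoA desaturase Scd2 (-1.24, adjusted p = 0.461).

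The promoter windows of the fatty acid binding protein Fabp1 and the carnitine carrier Slc25a20 are shown because PPAR–RXR dimers read direct repeats of AGGTCA. These are the 2 of 3 genes looked up that RefSeq's table (GRCm38.p6) held. Their changes had opposite signs, but Fabp1 was not called and its change was negative with runs 1 and 3 alone. Each window runs from 250 bases before to 50 bases after the start on the plus strand, in lower case. Copies of that hexamer on either strand are in capitals.
Fabp1, chr6:71199629-71199928: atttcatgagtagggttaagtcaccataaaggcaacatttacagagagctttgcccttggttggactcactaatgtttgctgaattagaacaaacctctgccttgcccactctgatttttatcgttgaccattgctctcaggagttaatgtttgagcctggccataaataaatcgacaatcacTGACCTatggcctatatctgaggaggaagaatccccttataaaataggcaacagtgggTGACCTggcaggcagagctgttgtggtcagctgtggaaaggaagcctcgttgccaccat
Slc25a20, chr9:108661886-108662185: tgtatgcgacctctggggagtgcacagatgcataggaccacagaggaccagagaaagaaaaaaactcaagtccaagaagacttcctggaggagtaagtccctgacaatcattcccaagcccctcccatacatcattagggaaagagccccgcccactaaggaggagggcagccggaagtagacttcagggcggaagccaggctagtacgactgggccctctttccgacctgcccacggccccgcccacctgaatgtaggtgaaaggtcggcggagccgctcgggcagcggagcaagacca
The Fabp1 window held AGGTCA on the reverse strand (written TGACCT) 67 and 9 bases before the start, and the Slc25a20 window held none. Of 32851 windows of 300 bases, 16.3% held AGGTCA on either strand, 1.51% the extended AAAGGTCA, which contains it, and 0.0396% the direct repeat of AGGTCA with 1 base of any kind between the copies. Neither window held the extended form or the exact repeat. Only exact copies were searched, so imperfect repeats, within these windows too, were not looked for. A match describes letters in a window and does not show binding. The absence of one does not show that a window lacks a receptor site, and says nothing of sites elsewhere. Apoc3 was the other gene looked up.

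Among the receptors and their partners 8 were tested, 4 with positive and 4 with negative changes, and 1 was called. Hnf4a, a nuclear receptor of the intestinal epithelium, had 229.5, 194.6, 234.7 and 239.3 CPM in PparD and 147.7, 165.0, 146.1 and 190.4 CPM in PparA. Every PparA library lay below every PparD library, with a change of -0.47 (SE 0.118, adjusted p = 0.0481). The call was lost without library 3, 5, 13, 19, 21 or 27, at adjusted p from 0.143 to 0.173. On the high-fat diet the change was -0.03 (adjusted p = 0.949).

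Chromosome 15, which carries Ppara, held 11 called genes of 218 tested (5.05% against 0.988% of all tested genes), 5 higher and 6 lower in PparA, of which 7 were called in the same direction on the high-fat diet. Within 10 Mb of Ppara 5 of 86 were called (5.81%). Chromosomes 11 and 19, with 451 and 206 tested genes, held none. The null allele and the DNA bred together with it cannot be told apart here.

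Cyb5r3 (chr15:83153494-83172592), which starts at -2.58 Mb from the Ppara start, encodes the reductase that feeds cytochrome b5 in fatty acid desaturation and sterol synthesis. It stood at 99.83, 77.26, 65.1 and 84.56 CPM in PparD (81.69 ± 14.51) and at 303.1, 301.5, 295.4 and 260.8 CPM in PparA (290.2 ± 19.91). The 3.55-fold difference separated the groups without overlap, with a log2 fold change of 1.83 (SE 0.142, adjusted p = 5.19e-10). WT averaged 82.54 and PparDA 312.5 CPM, so the groups labelled with the null allele were high and the others low. Apobec3, a cytidine deaminase that restricts retroviruses, went the other way, with 143.0, 268.9, 112.0 and 121.8 CPM in PparD and 41.97, 23.8, 52.99 and 39.55 CPM in PparA (-2.01, SE 0.263, adjusted p = 1.75e-05). WT averaged 134.6 and PparDA 31.87 CPM of Apobec3. Both genes were called the same way on the high-fat diet, Cyb5r3 at 1.93 (adjusted p = 1.66e-10) and Apobec3 at -1.78 (adjusted p = 0.00017), and both kept the call in all 20 alternatives run.

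Of the nearer neighbours, Tomm22, a receptor of the mitochondrial import complex, had 84.93, 95.09, 63.59 and 70.23 CPM in PparD and 41.97, 36.5, 46.56 and 41.02 CPM in PparA (-0.91, adjusted p = 0.000831). WT averaged 65.06 and PparDA 56.03 CPM of Tomm22, so PparDA lay between WT and PparA. Serhl, a serine hydrolase-like gene, was lower in PparA as well (-1.26, adjusted p = 0.0141), a call lost without library 3, 5, 27 or 29 (adjusted p = 0.0656 to 0.0775). Arhgap8, which encodes a GTPase-activating protein and starts at -1.01 Mb, was higher in PparA, with 17.88, 8.915, 13.63 and 20.06 against 24.87, 41.26, 40.14 and 39.55 CPM (1.25, adjusted p = 0.0206). Its call was lost without library 11, 13, 19, 21 or 29 (adjusted p = 0.069 to 0.161). WT averaged 15.54 and PparDA 22.49 CPM of Arhgap8, so here too PparDA lay between WT and PparA. For Serhl WT averaged 70.27 and PparDA 27.77 CPM.

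Farther along the chromosome, at -49.0 Mb from Ppara, Ywhaz (chr15:36770770-36796929) encodes the 14-3-3 zeta adaptor. It had 152.0, 135.2, 121.1 and 153.3 CPM in PparD and 276.7, 290.4, 213.6 and 273.9 CPM in PparA, with no overlap (0.90, SE 0.128, adjusted p = 5.12e-05). PparDA averaged 288.8 and WT 130.2 CPM. Cmbl, a hydrolase gene at -54.2 Mb, had 32.78, 49.03, 28.77 and 24.36 CPM in PparD and 138.4, 114.3, 69.04 and 120.1 CPM in PparA (1.72, SE 0.284, adjusted p = 0.000564), with 32.24 CPM in WT and 138.5 CPM in PparDA. Both were called higher in PparA on the high-fat diet, Ywhaz at 0.60 (adjusted p = 0.00699) and Cmbl at 1.04 (adjusted p = 0.0362). The surface proteoglycan Sdc2 (-1.09, adjusted p = 0.0245), Fam173b (-1.69, adjusted p = 0.0495) and the GPI-anchored Ly6e (-1.02, adjusted p = 0.0495) were lower in PparA. WT and PparDA averaged 36.32 and 15.25 CPM of Sdc2, and 25.1 and 6.669 CPM of Fam173b. Ly6e did not follow the null label: PparDA was the highest at 607.6 CPM, beside 312.8 in WT, 437 in PparD and 223.1 in PparA. The calls of Sdc2, Fam173b and Ly6e did not hold when single libraries were left out. Sdc2 lost its call without library 3, 5, 13 or 27 (adjusted p = 0.0671 to 0.135), Fam173b and Ly6e without any of 3, 5, 11, 13, 19, 21 and 27 (adjusted p = 0.0609 to 0.23 and 0.0525 to 0.245). Emc2, a subunit of a membrane insertase of the endoplasmic reticulum, was called at 0.54 (adjusted p = 0.0457) and is named after its value was seen. It averaged 94.15 CPM in PparD, 120.6 in WT, 138.2 in PparA and 144.8 in PparDA.

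**Figure D3:**
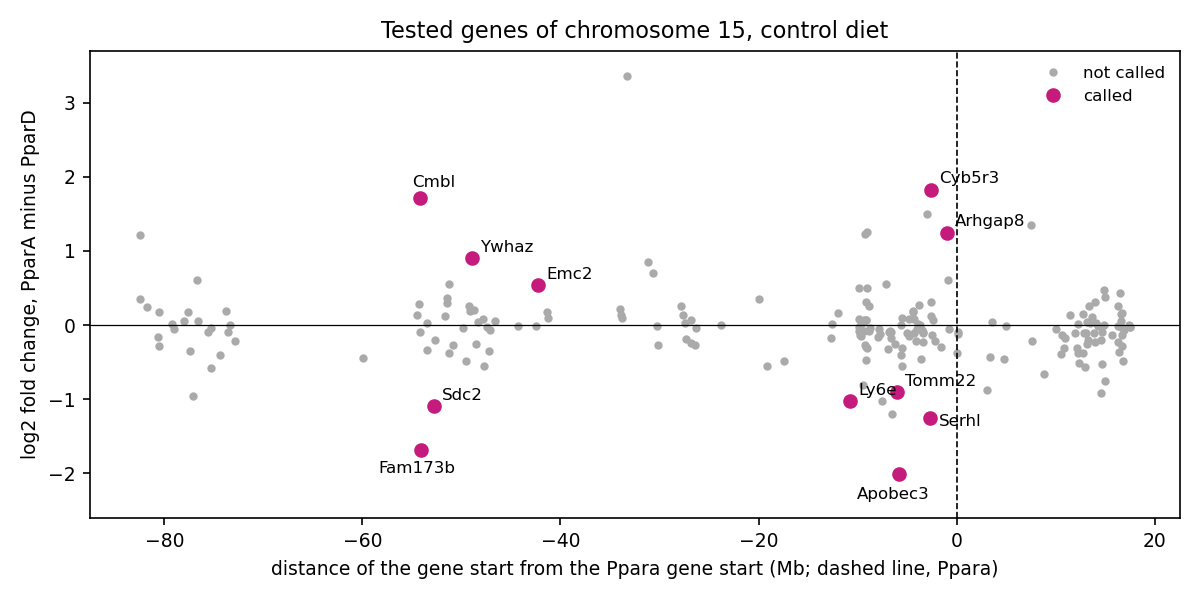
Each point is one of the 218 tested genes of chromosome 15, with the distance of its start from the Ppara start in Mb on the horizontal axis and its log2 fold change, PparA minus PparD, on the vertical axis. The 11 called genes lie on the side of lower coordinates, from -1.01 to -54.2 Mb, in both directions of change.

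Near Ppard, 1 of 143 tested genes within 10 Mb was called (0.699%). Ppt2 (chr17:34616662-34628510), a lysosomal thioesterase, had 40.23, 41.6, 62.07 and 61.63 CPM in PparD (51.38) and 6.218, 6.347, 9.634 and 5.86 CPM in PparA (7.015). The 7.32-fold difference left a wide gap between the groups (log2 fold change -2.84, SE 0.297, adjusted p = 2.81e-07) and kept its call in all 20 alternatives run. WT averaged 7.749 CPM, at the PparA level, and PparDA 37.93 CPM. On the high-fat diet the PparD libraries held 7.337 to 14.5 CPM and the PparA libraries 6.598 to 8.316 CPM, and the change was -0.36 (adjusted p = 0.751). The change differed between the diets (adjusted p = 0.022), so the high Ppt2 level of PparD belonged to its control-diet libraries.

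Away from both loci, Ptms, a small acidic chromatin protein, had 14.9, 25.26, 42.39 and 43.0 CPM in PparD and 1.555, 6.347, 6.423 and 2.93 CPM in PparA (-2.84, SE 0.374, adjusted p = 1.75e-05). Stk11, the kinase LKB1 that activates AMPK, had 23.84, 23.77, 19.68 and 30.1 CPM in PparD and 9.327, 6.347, 9.634 and 10.25 CPM in PparA (-1.44, SE 0.343, adjusted p = 0.0324). Its call was lost without any of libraries 3, 5, 11, 13, 21, 27 and 29 (adjusted p = 0.0722 to 0.141). Neither Ptms (0.14, adjusted p = 0.939) nor Stk11 (1.21, adjusted p = 0.104) was called on the high-fat diet, and for both the change differed between diets (adjusted p = 0.0381 and 0.0177).

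Higher in PparA were Hsd17b13, a lipid droplet enzyme, with 29.8, 7.429, 9.084 and 14.33 CPM in PparD and 63.74, 33.32, 57.8 and 46.88 CPM in PparA (1.72, SE 0.36, adjusted p = 0.0117). It was also called higher on the high-fat diet (1.95, adjusted p = 0.00496), while on the control diet the call was lost without library 5, 11 or 19 (adjusted p = 0.0503 to 0.0723). Tmem116 had 4.47, 2.972, 3.028 and 0 CPM in PparD and 32.65, 6.347, 38.54 and 71.78 CPM in PparA (3.74, SE 0.768, adjusted p = 0.00986), a call lost without library 27 or 29 (adjusted p = 0.0744 and 0.061). It overlaps 6 other annotated genes, and whether counting used the strand is not given, so reads of its neighbours may be among its counts. Of the 58 called genes 25 overlap another annotated gene, 21 of them on the other strand. The share over all tested genes was not counted, so these counts do not set the called genes apart. The list of xenobiotic, retinoid and steroid metabolism had 13 positive and 4 negative changes among 17, with 2 called, Hsd17b13 and the sulfotransferase Sult1b1. Sult1b1 (0.97, adjusted p = 0.0387) lost its call without library 11, 13, 19, 21, 27 or 29 (adjusted p = 0.0599 to 0.291).

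Ribosomal protein genes, which encode the proteins of the cytosolic ribosome, held 6 called genes of 79 tested (7.59%), 5 lower and 1 higher in PparA. Many have near-identical processed pseudogenes, and how the counting divided shared reads is not given, so the level of each gene is uncertain in that respect. Rps24 (chr14:24487125-24496959) had 7587, 7570, 7964 and 6277 CPM in PparD (7350 ± 737.6) and 1517, 1523, 1254 and 1633 CPM in PparA (1482 ± 161.1). This 4.96-fold difference (log2 fold change -2.31, SE 0.16, adjusted p = 5.6e-11) was far larger than the spread within either group. WT stood at 1416 ± 406.6 CPM, like PparA, and PparDA at 3044 ± 207.2 CPM. On the high-fat diet the PparD libraries had 1826, 1988, 1575 and 1762 CPM and the PparA libraries 1541, 1608, 1549 and 1475 CPM, a change of -0.21 (adjusted p = 0.575). The high Rps24 level was thus one of PparD control-diet libraries, and the change differed between diets by 2.10 on the log2 scale (adjusted p = 3.31e-07).

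Rpl28 (chr7:4792874-4795066) had 1933, 2495, 2798 and 2220 CPM in PparD and 1010, 1396, 1504 and 1349 CPM in PparA (-0.85, SE 0.13, adjusted p = 0.000209). WT averaged 2250 and PparDA 2814 CPM, so for Rpl28 the PparA level was the one that lay apart. It was called the other way, higher in PparA on the high-fat diet, at 2.18 (adjusted p = 2.21e-12). Rps4x had 15460, 13780, 13410 and 14280 CPM in PparD and 7599, 7293, 8131 and 6686 CPM in PparA (-0.94, SE 0.159, adjusted p = 0.000806), and it was 1.61 higher in PparA on the high-fat diet (adjusted p = 1.15e-07).

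Rps15a and Rps26 kept their direction on the high-fat diet. Rps15a had 2996, 3600, 3273 and 2564 CPM in PparD and 1216, 1362, 748.2 and 1786 CPM in PparA (-1.30, SE 0.212, adjusted p = 0.000507), and -1.09 on the high-fat diet (adjusted p = 0.00247). Rps26 had 1541, 1770, 1623 and 1184 CPM in PparD and 2002, 2098, 2168 and 2013 CPM in PparA (0.45, SE 0.105, adjusted p = 0.0305), a call lost without library 3, 21, 27 or 29 (adjusted p = 0.0671 to 0.145). The list as a whole had 66 negative and 13 positive changes and a median of -0.09. That count moved with the libraries: it was 75 negative without library 27, and 38 negative with 41 positive when only runs 2 and 4 were used, where the median was 0.01. Mitochondrial ribosomal protein genes had 38 positive and 36 negative changes among 74 and none called.

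Pseudogenes made up a larger share of the calls than of the tested genes, with 15 of 104 annotated pseudogenes called (14.4%), 11 higher and 4 lower in PparA, and 9 of the 15 called the same way on the high-fat diet. The ones described here were named after their values were seen. Rpl3-ps1 had no count in any PparD library and 158.6, 60.3, 44.96 and 24.9 CPM in PparA, at least 65-fold higher against a floor of 3 counts over the PparD group (1.11 CPM). Its adjusted p was 5.6e-11 on the control diet and 3.86e-13 on the high-fat diet. Rpl30-ps9 was likewise at 0 in all PparD libraries and at 132.1, 85.69, 33.72 and 65.92 CPM in PparA, at least 71.5-fold higher (adjusted p = 3.09e-05). Gm6278 had 7.45, 11.89, 6.056 and 7.166 CPM in PparD and 1436, 4.761, 1453 and 1617 CPM in PparA, so 3 PparA libraries were high and library 13 was not (7.06, SE 0.838, adjusted p = 2.94e-06). Some calls rest on 1 library: Gm4294 had 96.38 CPM in PparA library 5 and 0 in the other 7, and Gm9794 had 125.2 CPM in PparD library 3 and 0 in the other 7. The processed pseudogene Gm15536 (chr10:7038661-7038774) had 1477, 1939, 2024 and 1609 CPM in PparD and 831.7, 1057, 904.0 and 1001 CPM in PparA (-0.89, SE 0.0984, adjusted p = 7.37e-07).

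The stem cell label was checked against its markers, and both groups carried them. Olfm4, an abundant secreted glycoprotein of crypt base stem cells, stood at 9884 to 13190 CPM in PparD and 10060 to 13360 CPM in PparA (-0.02, adjusted p = 0.993). Lgr5, the receptor that defines these cells, had 56.62, 49.03, 28.77 and 65.93 CPM in PparD and 37.31, 41.26, 61.01 and 61.53 CPM in PparA, which overlap. Of 20 tested markers 10 changes were positive and 10 negative, with a median of -0.0006. The 1 called marker was Prom1, a membrane glycoprotein of stem and early progenitor cells, with 324.8, 312.0, 260.4 and 233.6 CPM in PparD and 150.8, 215.8, 183.0 and 206.6 CPM in PparA (-0.58, SE 0.144, adjusted p = 0.0451). That call was lost without library 3, 5, 11, 19, 21 or 29 (adjusted p = 0.061 to 0.229). Proliferation genes had 15 negative and 11 positive changes among 26, and Wnt and Notch genes 4 positive and 3 negative among 7, with none called in either list.

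Genes of differentiated cells were higher in some PparA libraries, few of them past the test. In bulk libraries more cells of a type and more RNA per cell cannot be told apart. All 18 tested enterocyte genes had positive changes, none was called, and the median was 1.23. Their summed level was 1943, 1663, 2100 and 1631 CPM in PparD and 1749, 6065, 1618 and 3393 CPM in PparA, so PparA libraries 13 and 29 were high and libraries 5 and 21 lay in or just below the PparD range. The median was 0.63 without library 13, and by run pair it was -0.24 in runs 1 and 3 and 2.26 in runs 2 and 4. Paneth cell genes had 18 positive changes of 19 with a median of 0.76 and 1 called, Guca2b, which encodes uroguanylin. Guca2b had 62.58, 60.92, 106.0 and 87.42 CPM in PparD and 158.6, 902.9, 96.34 and 252.0 CPM in PparA (1.95, SE 0.476, adjusted p = 0.0387), a call lost without library 3, 11, 13, 27 or 29 (adjusted p = 0.0512 to 0.493). By run pair Guca2b changed by 0.58 in runs 1 and 3 and by 2.88 in runs 2 and 4. The Paneth list had medians of 0.88 and 0.65 there, so the call of Guca2b does not stand for that list. Like the enterocyte sum, Guca2b was highest in PparA libraries 13 and 29. A pair of Paneth cell alpha-defensins outside the list, named after their values were seen, were called higher in PparA too. Defa27 had 0, 1.486, 0 and 8.599 CPM in PparD and 0, 39.67, 11.24 and 70.32 CPM in PparA (3.50, adjusted p = 0.000831). Defa35 had 1.49, 0, 0 and 0 CPM in PparD and 0, 36.5, 8.028 and 55.67 CPM in PparA (5.45, adjusted p = 0.0124). Both were also called higher on the high-fat diet (adjusted p = 2.94e-06 and 0.000207). PparA library 5 was at 0 for both, the defensin genes are near-identical so that their counts are uncertain, and leaving out single libraries was not run for them.

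Goblet cell genes were positive in 11 of 11 and enteroendocrine genes in 7 of 7, with medians of 0.73 and 1.03 and none called. Goblet sums were 2089, 1575, 2939 and 2865 CPM in PparD and 5107, 4692, 2673 and 2836 CPM in PparA, so here PparA libraries 5 and 13 were the high ones. They averaged 3967 CPM in WT (1803 to 4952), 3827 in PparA, 2367 in PparD and 5938 in PparDA. Enteroendocrine sums averaged 131.6 CPM in WT, 140.1 in PparA, 62.59 in PparD and 161.1 in PparDA. In both lists the PparA mean lay near that of WT, and the PparD mean was the lowest. The secreted lectin Zg16 of goblet cells gave 1.63 (adjusted p = 0.407) and the hormone gene Ghrl 2.35 (adjusted p = 0.309). Tuft cell genes had 3 positive and 4 negative changes among 7. No lymphocyte or myeloid marker passed the filter, with summed levels of 5.943 to 21.5 CPM in PparD and 3.211 to 111.1 CPM in PparA and 2 of 18 markers at 0 in all 8 libraries. Stromal and endothelial markers were at 0 in all 8 libraries for 9 of 13, and red blood cell markers for 4 of 5. The part of other cell types in the called genes was not tested. Dmbt1, a secreted scavenger protein on the proximal intestine list, was lower in PparA, with 1834, 3120, 2589 and 1449 CPM in PparD and 1808, 1065, 918.4 and 808.7 CPM in PparA (-0.96, adjusted p = 0.0344), a call lost without library 11, 13, 19, 21, 27 or 29 (adjusted p = 0.0502 to 0.299).

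**Figure D4:**
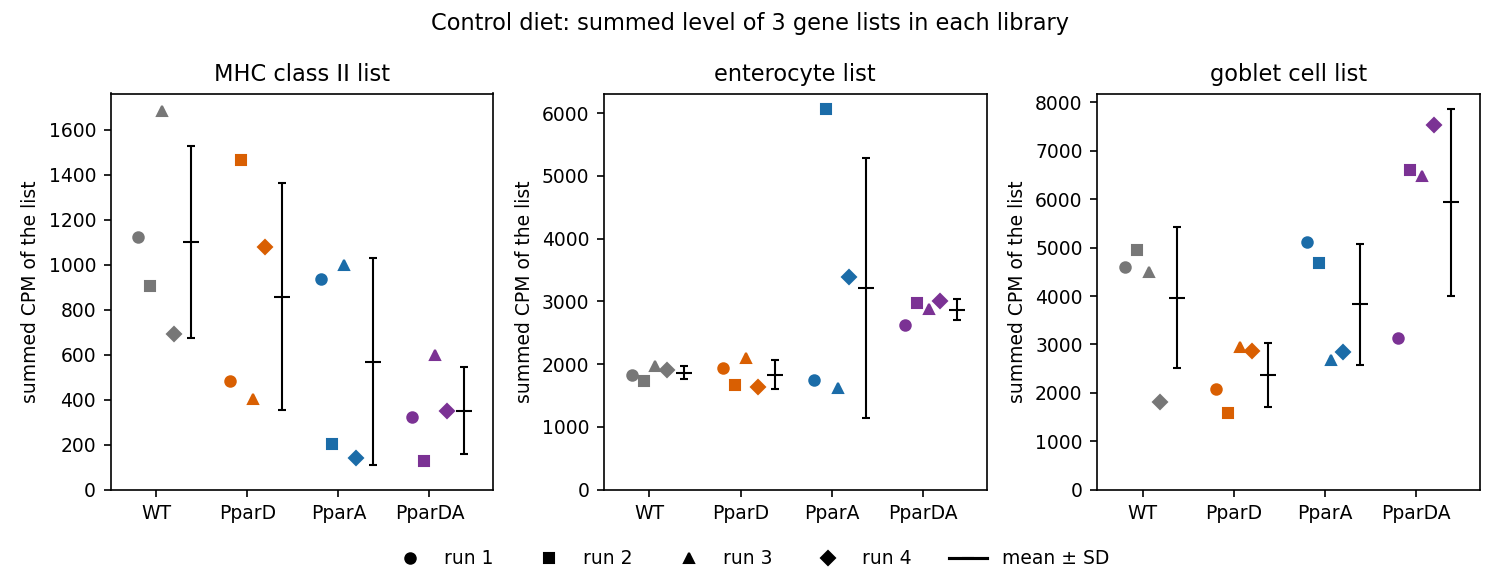
Summed CPM of the MHC class II, enterocyte and goblet cell lists in each control-diet library of 4 genotypes (vertical axes from 0, marker shape by run, bars mean ± SD of 4 libraries). In PparA the MHC class II sum is high in runs 1 and 3 (937.4 and 997.1 CPM) and low in runs 2 and 4 (203.1 and 140.6 CPM), while PparD has the reverse order.

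The difference between the genotypes itself differed between run pairs for 29 genes (0.494%), 2 of them among the 58. MHC class II genes, which present antigen and are known in Lgr5-positive stem cells, were 4 of the 29. Their summed level was 484.2, 1466, 404.2 and 1078 CPM in PparD and 937.4, 203.1, 997.1 and 140.6 CPM in PparA. PparA was thus the higher group in runs 1 and 3 and the lower in runs 2 and 4, and over all runs none of 7 tested members was called (median -0.74). H2-DMa, a chaperone of peptide loading, had 99.83, 203.6, 99.93 and 193.5 CPM in PparD and 205.2, 38.08, 226.4 and 38.09 CPM in PparA, a difference between run pairs of 3.48 on the log2 scale (adjusted p = 0.00553). H2-Aa (5.71, adjusted p = 0.00702), Cd74 (5.15, adjusted p = 0.00853) and H2-DMb1 (4.54, adjusted p = 0.00837), named after their values were seen, did the same. The run pairs differ in sex-linked genes and in whatever else was shared within a run, and these cannot be told apart. The count of 29 was 7 without library 19.

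Of the other genes with such a difference, Itch, Rep15 and Fgf1 were high in PparA libraries 13 and 29 and in none of the other 6. Itch, a ubiquitin ligase, had 79.28, 693.5, 62.62 and 306.2 CPM in PparA and 77.39 to 105.8 CPM in PparD (adjusted p = 0.0035). Rep15 had 87.05, 1117, 70.65 and 460.0 CPM in PparA and 56.62 to 98.41 CPM in PparD (adjusted p = 0.00553). Fgf1, a fibroblast growth factor, was among the 58, with 4.664, 99.97, 8.028 and 171.4 CPM in PparA and 1.486 to 7.166 CPM in PparD (3.66, SE 0.769, adjusted p = 0.0119), and was picked after its values were seen. PparDA averaged 152.0 CPM of Fgf1 and WT 5.521 CPM. Ldb3 was low where these were high, with 46.64, 3.174, 33.72 and 1.465 CPM in PparA and 37.26 to 47.68 CPM in PparD (adjusted p = 0.00553).

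The same genotypes on the high-fat diet, in other libraries, gave 201 called genes (3.42%), 87 higher in PparA (1.48%) and 114 lower (1.94%). That count was 89 without library 4, 132 without library 12, 97 without library 14 and 80 without library 30. Libraries of both diets were fitted in the same model and share its filter, run effects and variance estimates. The calls on the high-fat diet are therefore not independent of those on the control diet. Of the 30 genes called higher in PparA on the control diet, all 30 had the same sign on the high-fat diet and 22 were called there. Of the 28 called lower, 15 had the same sign, 7 were called lower and 5 were called higher. The difference between diets was called for 14 genes (0.238%), of which 10 were among the 28 and none among the 30. Those 10 include the ribosomal genes Rps24, Rpl28 and Rps4x, and Ppt2, Ptms and Stk11. The difference between diets contains the control-diet change by which the 28 and the 30 were picked. Genes with a large control-diet change are thus favoured in it, and the overlap is not an independent result. All 11 called genes of chromosome 15 kept their sign, as did Slc25a20 and Hsd17b13.

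**Figure D5:**
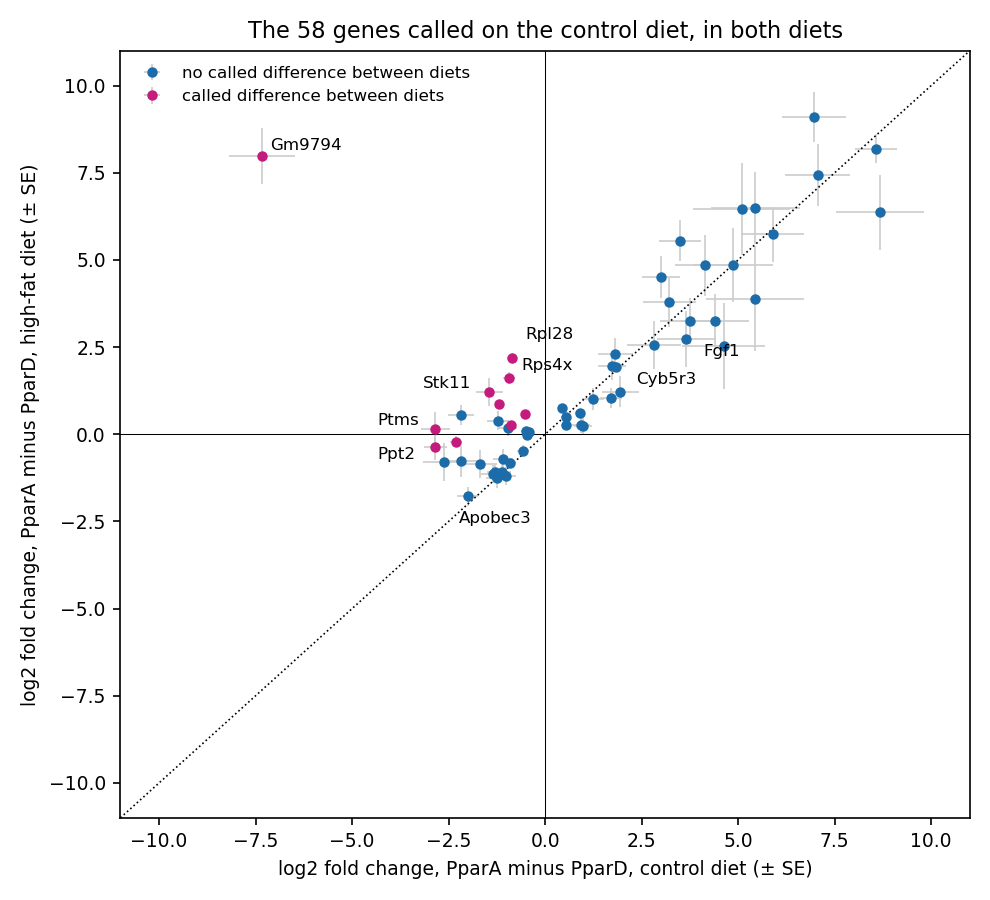
Each point is 1 of the 58 genes called on the control diet, with its log2 fold change, PparA minus PparD, on the control diet (horizontal axis) and on the high-fat diet (vertical axis), bars ± SE, and the dotted line where both are equal. The 30 genes higher in PparA lie above 0 on both axes, while the 10 with a called difference between diets (second colour) all come from the genes lower in PparA on the control diet.

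The energy and stress lists had no called member. Tricarboxylic acid cycle genes had 9 positive and 9 negative changes among 18, glycolysis 3 and 8 among 11, the nuclear-encoded respiratory chain 19 and 11 among 30, and NRF2 and glutathione genes 7 and 7 among 14. Mitochondrially encoded transcripts were positive in 11 of 13 protein-coding genes, none called, with a median of 0.12, and endoplasmic reticulum stress genes negative in 11 of 13 with a median of -0.21. Gpx2, a glutathione peroxidase of the gut epithelium, had 756.9, 1721, 1014 and 927.3 CPM in PparD and 693.3, 764.9, 740.2 and 818.9 CPM in PparA (-0.50, SE 0.13, adjusted p = 0.0587). The subunit mt-Nd2 of complex I had 1502 to 1850 CPM in PparD and 1861 to 2079 CPM in PparA (0.28, SE 0.0763, adjusted p = 0.0781). The ranges of mt-Nd2 did not overlap, yet it did not pass the test. The mitochondrial ribosomal RNA mt-Rnr2, outside the list and named after its values were seen, was called higher in PparA. It had 8360, 6465, 6709 and 4737 CPM in PparD and 10550, 10500, 9725 and 7008 CPM in PparA (0.53, SE 0.117, adjusted p = 0.0167), with overlapping ranges, and 0.48 on the high-fat diet (adjusted p = 0.0163).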

How the data were processed

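The authors deposited expected counts for each gene, rounded to integers before deposit, and a table of log2(CPM + 1) values that sums to 1000000 CPM in each library. Per the submitters' processing notes Salmon 1.1.0, edgeR 3.30.2, R 4.0.2 and build mm10 were used, in roles the notes do not give. Molecular identifiers, strand and the annotation release are not described there. Of 54418 identifiers 54166 matched GENCODE M21 (GRCm38), used for symbols and coordinates.

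Counts of all 32 libraries were fitted with edgeR 4.0.16 (R 4.3.3; filterByExpr with a minimum count of 10 and total of 15; TMM; quasi-likelihood; group and run). The common biological coefficient of variation was 16.8%. CPM use TMM factors (0.9678 to 1.067), and the SE is the log2 fold change divided by the square root of F. DESeq2 1.42.0, and limma 3.58.1 on the deposited log2(CPM + 1) values, were alternatives, with others given below. No replicate pair was a duplicate (chi-square per gene 2.99 to 7.63). Deviations from group means correlated at 0.0294 to 0.239 within a run and at most 0.132 between runs; the run was a block because the comparison was defined so.

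In tests on simulated data 29.9, 56.9 and 81.2% of 67, 65 and 64 genes changed 1.5-, 2- and 4-fold were called in this comparison. So were 11 of 5583 unchanged genes, which are a larger share of the simulated calls than of the unchanged genes. The counts were drawn from the fitted model, so departures of the data from that model were not tried. The members, lists and comparison were chosen with earlier results of these data known. Named genes are the called genes of largest change (at most 15 each way, mean of at least 10 CPM, non-overlapping ranges, no clone or pseudogene name), PPAR targets and stem markers, called members of each list (or its 2 of smallest p), called genes within 10 Mb of Ppara or Ppard, and up to 5 of each interaction; not all are described. A few are not reported here, though counts and lists include them.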

Additional observations from a re-analysis of the deposited data

Results flagged for a closer look

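A library far from the other 3 of its group was found in 8 of 106 groups of 4 looked at, where chance gives about 1 in 20. In PparA these were run 1 for Cpt1a (43.53 CPM), Angptl4 (13.99 CPM), Arhgap8 (24.87 CPM, the lowest of its group) and Ciita (4.664 CPM, the MHC class II transactivator, picked after its values were seen), and run 3 for Ppt2 (9.634 CPM), Ppard (1.606 CPM) and Pdk4 (0.0 CPM). In PparD it was run 3 for Ly6e (585.9 CPM). Ppard and Pdk4 failed the filter on low counts, so their flagged libraries differ from the others by only a few counts. The rate of 1 in 20 need not hold for such values.

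The difference between the genotypes differed between diets, as high-fat minus control log2 fold change, for Rpl28 (3.03, adjusted p = 4.41e-12), Rps4x (2.56, adjusted p = 1.21e-08), Rps24 (2.10, adjusted p = 3.31e-07), Gm15536 (1.17, adjusted p = 3.84e-06), Stk11 (2.65, adjusted p = 0.0177), Ppt2 (2.48, adjusted p = 0.022) and Ptms (2.98, adjusted p = 0.0381).

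Between run pairs, as runs 1 and 3 minus runs 2 and 4, it differed upward for Ldb3 (3.85, adjusted p = 0.00553), H2-DMa (3.48, adjusted p = 0.00553), H2-Aa (5.71, adjusted p = 0.00702), H2-DMb1 (4.54, adjusted p = 0.00837) and Cd74 (5.15, adjusted p = 0.00853). It differed downward for Itch (-2.996, adjusted p = 0.0035), Smim24 (-2.15, adjusted p = 0.0035), Rep15 (-3.44, adjusted p = 0.00553), Fgf1 (-4.65, adjusted p = 0.00702), Sis (-6.37, adjusted p = 0.00702), Reg1 (-4.19, adjusted p = 0.0155) and Ly6e (-1.51, adjusted p = 0.0218). The enterocyte disaccharidase Sis had 4.664, 203.1, 3.211 and 58.6 CPM in PparA and 4.457 to 17.88 CPM in PparD.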

How the results depend on the processing

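Among the named genes followed through the alternatives, no called value changed sign. Some uncalled ones did, such as Cpt1a (0.23), Fabp1 (-0.66) and H2-DMa (1.115) with runs 1 and 3 alone. Called genes outside that set, most of the pseudogenes, Fgf1 and mt-Rnr2 among them, were not followed. The 58 calls became 42 without the replicate block (41 shared), 265 without the low-count filter (54 shared), 18 and 16 with only the 8 libraries fitted, with and without the replicate block, 32 with runs 1 and 3 and 131 with runs 2 and 4. Leaving out 1 library gave 35 to 54. They were 55 with size factors by relative log expression, 56 at a mean of at least 10 CPM, 48 with DESeq2 (43 shared), 52 with a robust prior, 42 with limma and, added after the data were seen, 53 with TMM factors computed without ribosomal protein genes (30 higher, 23 lower). The 201 high-fat calls became 92 without the block and 424 without the filter, and 80 to 237 leaving out 1 library. The 14 diet differences became 9 without the block and 78 without the filter, and 7 to 15 leaving out 1 library. The 29 run pair differences became 19 without the block, and 7 to 27 leaving out 1 library. No run pair fit was made without the filter. Among values of single named genes on the control diet 173 lost a call, 42 gained one and 61 moved beyond the spread without a call, while 1455 did none of these. Cyb5r3, Ywhaz, Ppt2, Rps24, Apobec3, Rps4x, Rpl28 and Gm15536 kept the call in all 20 alternatives. Genes under a few counts per library, Ppara and Ppard among them, cannot be compared at this depth. The column names carry no replicate number, so the run of library numbers served as the block. The cause of each change was not tested, apart from the fewer samples or genes that an alternative uses.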

Other observations

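The genes that were high in PparA libraries 13 and 29 were also high in the PparDA control-diet libraries, chosen after their values were seen and not tested here. PparDA held 785.4 ± 299.6 CPM of Rep15 (SD, n = 4), 529.0 ± 163.4 CPM of Itch and 67.36 ± 14.05 CPM of Sis, where WT had 77.28 ± 7.279 CPM of Rep15, 70.55 ± 13.41 CPM of Itch and 13.05 ± 7.156 CPM of Sis.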
